A study of Homo sapiens with 24 samples.

Results

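The response to nifuroxazide (NIF) of cells with low aldehyde dehydrogenase activity (ALDHneg) was compared between a breast cancer line, SUM159, and a colon cancer line, SW620. The members were the 12 ALDHneg libraries of the 24 libraries of the series, taken by their labels as 4 groups of 3: SUM159 under DMSO, SUM159 under NIF, SW620 under DMSO and SW620 under NIF. Both lines were grown attached in their standard medium and treated for 30 h, after which the ALDHneg fraction was sorted by the ALDEFLUOR assay, in 3 independent experiments. RNA was read from a stranded total RNA library and deposited as raw counts per gene. Both lines are established cell lines kept in culture, and the controls received DMSO in place of NIF. The study reports that NIF lowers the share of ALDHbr cells. As the sort came after treatment, the ALDHneg fractions of NIF and DMSO could also differ in make-up, which was not tested. The study lists the final NIF concentration for each line in a table not used here, so that line and dose cannot be told apart in these values. The other 12 libraries, of sorted cells with high activity (ALDHbr), were used at the end as samples that took no part in the choice of genes.

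NIF is a nitrofuran, an oral antibiotic that is also known as an inhibitor of the transcription factor STAT3. Its nitro group has to be reduced to become reactive, and aldehyde dehydrogenase enzymes can do this. Reactive compounds release the transcription factor NRF2 from its inhibitor and switch on genes of glutathione, thioredoxin and quinone metabolism. Shortage of amino acids, misfolded protein or oxidants raise translation of ATF4, which switches on amino acid import and synthesis (the integrated stress response). Inflammatory cytokines are switched on by NF-kB and AP-1.

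Total counts ran from 31212580 to 43127948 per library. The line labels held: the summed level of 20 tested mesenchymal markers was 11800 to 14400 CPM (counts scaled to a common library size) in SUM159 and 993 to 1120 CPM in SW620, and that of 20 tested colon epithelial markers 559 to 770 CPM in SUM159 and 13900 to 16300 CPM in SW620. ALDH1A1, an aldehyde dehydrogenase that can mark the sorted-out fraction, measured 0.45, 0.396 and 0.511 CPM in the SUM159 DMSO libraries. In those of SW620 it measured 947, 982 and 956 CPM, so that the SW620 ALDHneg cells were not free of its transcript. Under NIF it measured 595, 576 and 603 CPM in SW620, a log2 change of -0.7 (SE 0.061). This fall was not shown to differ from the response in SUM159, where the level was very low. The SW620 log2 change minus that of SUM159 was -0.56 (95% interval -1.15 to 0.02, adjusted p = 0.15 by the edgeR test described below). In such bulk samples, fewer cells of a type and less RNA per cell cannot be told apart.

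Far more genes responded in SW620 than in SUM159, and most of them did not respond likewise in the other line. Of 15859 genes tested in 1 fit, 1027 (6.48%) changed under NIF in SUM159 ALDHneg cells at an adjusted p below 0.05 (edgeR quasi-likelihood test, Benjamini-Hochberg), 410 (2.59%) higher and 617 (3.89%) lower. In SW620, 6474 (40.8%) changed, 3387 (21.4%) higher and 3087 (19.5%) lower. The line difference, which is the log2 response of SW620 minus that of SUM159, was called for 4211 genes (26.6%), with 2270 (14.3%) above 0 and 1941 (12.2%) below. With scaling to library size alone, 40.2% of the line differences called lay above 0 in place of 53.9%. The median size of a log2 response was 0.225 in SW620 and 0.0998 in SUM159, over the 12436 genes that passed the filter on low counts in each line alone.

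These 12436 genes were sorted by their calls. Of them, 226 responded alike (called in both lines in 1 direction, the difference not called), and 103 of those rose. A further 165 moved in 1 direction but unequally, and in 159 of them the SW620 response was the larger. Opposite responses were called for 216 genes, 159 higher in SW620 and lower in SUM159 and 57 the reverse. A change in SW620 only, with the line difference called as well, was found for 3241 genes, and one in SUM159 only for 195. The remaining genes lacked a call that would place them, 6049 of them without any. Across all 12436 genes the log2 responses of the lines correlated at a Pearson r of 0.124 and a Spearman coefficient of 0.13, and 54% had 1 sign in both. These are values across genes of the same 12 libraries, and genes are not replicates. Among the 226 alike genes, the 95% interval of the line difference lay within 1 of 0 for 218 and within 0.5 for 176, so that an equal response was not shown for the rest.

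**Figure D1:**
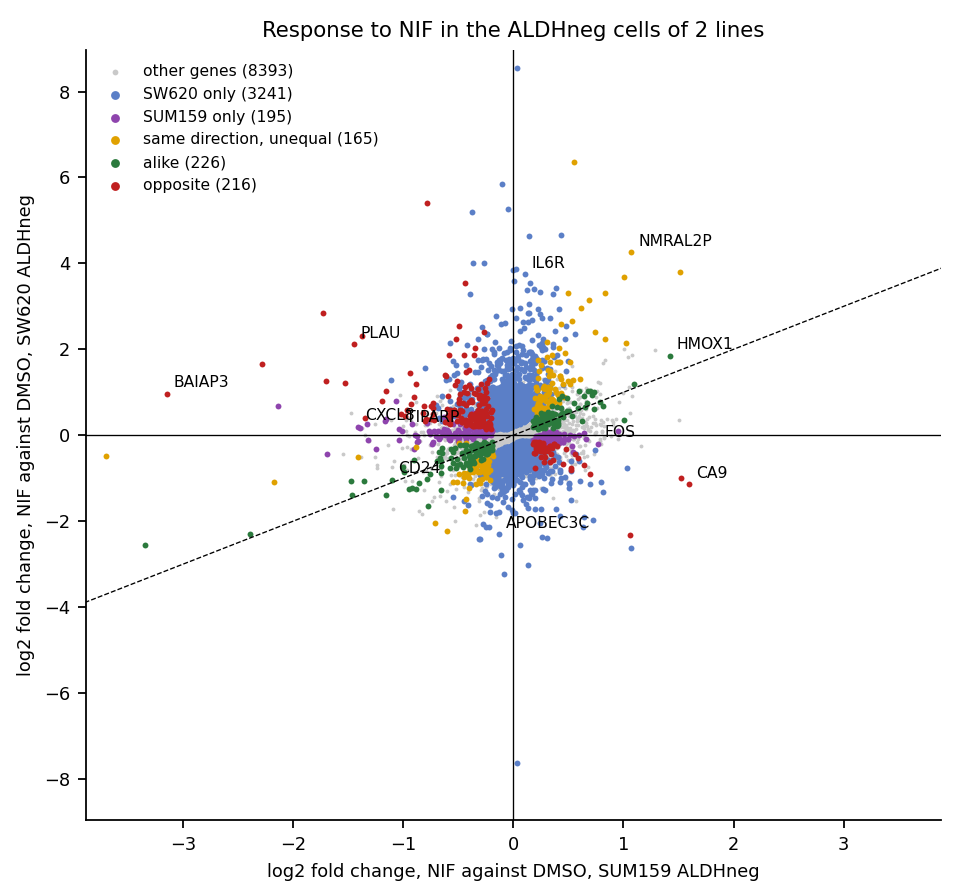
Log2 fold change under NIF in SUM159 ALDHneg cells (horizontal axis) and in SW620 ALDHneg cells (vertical axis) for 12436 genes, coloured by response class, with the line of equal response dashed. Most coloured points lie along the vertical axis (3241 SW620 only), and the 216 opposite genes fill the upper left and lower right.

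How many genes were called in SUM159 depended on how its spread was estimated, as the fit shared 1 spread between the lines. The median SD of log2 CPM within a group was 0.119 and 0.0959 in SUM159 (DMSO and NIF) and 0.0645 and 0.0624 in SW620. SUM159 fitted alone gave 292 calls. Without replicate 1 or 3 of SUM159 NIF there were 655 or 677 SUM159 calls, and without replicate 2 of SUM159 DMSO 1583. SUM159 libraries of the same replicate number deviated together, and with the replicate block in SUM159 only, 2785 genes were called there, with 529 alike, 507 unequal, 633 opposite and 420 in SUM159 only. All 216 opposite genes kept that class under the block, and 124 of them did with 1 weight per group (limma voom). Under the block the alike class kept 189 of 226 genes, SUM159 only 156 of 195 and SW620 only 2726 of 3241. With voom these classes kept 105, 87 and 3116. The unequal class kept all 165 under the block and 97 with voom.

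Among the genes that rose in SW620 and fell in SUM159 were secreted and signalling proteins. PLAU, the urokinase plasminogen activator, measured 95.5, 96.9 and 69.2 CPM under DMSO and 32.8, 35.7 and 27.5 CPM under NIF in SUM159, a log2 change of -1.45 (SE 0.11). In SW620 it went from 8.63, 8.59 and 7.61 CPM to 36.2, 37.1 and 34.5 CPM, a log2 change of 2.12 (SE 0.12). NIF thus brought the lines from levels that lay far apart to levels that overlapped, and the line difference was 3.56 (95% interval 3.21 to 3.91, adjusted p = 3.51e-11). BAIAP3, a protein of dense-core vesicle traffic, fell in SUM159 from 17.2, 12.4 and 14.6 CPM to 1.51, 1.72 and 1.81 CPM. In SW620 it rose from 6.93, 6.87 and 7.21 CPM to 13.9, 13.5 and 13.6 CPM. Its line difference of 4.11 (SE 0.18, adjusted p = 1.52e-11) was the highest of the opposite genes named here. The rule for names asked for no overlap of NIF and DMSO libraries in each line where a gene was called, so that lack of overlap is no added support. Of the genes that passed the filter in each line alone, 19.7% had no overlap in SUM159 and 64.6% in SW620. PDGFB, a chain of platelet-derived growth factor, measured 7.36, 6.82 and 6 CPM under DMSO and 5.16, 3.98 and 3.84 CPM under NIF in SUM159. It rose in SW620 from 21.8, 21.1 and 21.7 CPM to 54.2, 56.5 and 57 CPM, and the line difference was 1.99 (SE 0.14, adjusted p = 6.98e-09). With SUM159 fitted alone the adjusted p of its SUM159 change was 0.0683, and that of TPPP, a tubulin-binding protein that moved alike (log2 -1.16 in SUM159 and 1.03 in SW620), was 0.0758. PCED1B changed by -0.73 and 0.64, and GALNT5, which starts O-linked glycans, by -0.6 and 0.6, each on the log2 scale in SUM159 and SW620 in turn.

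**Figure D2:**
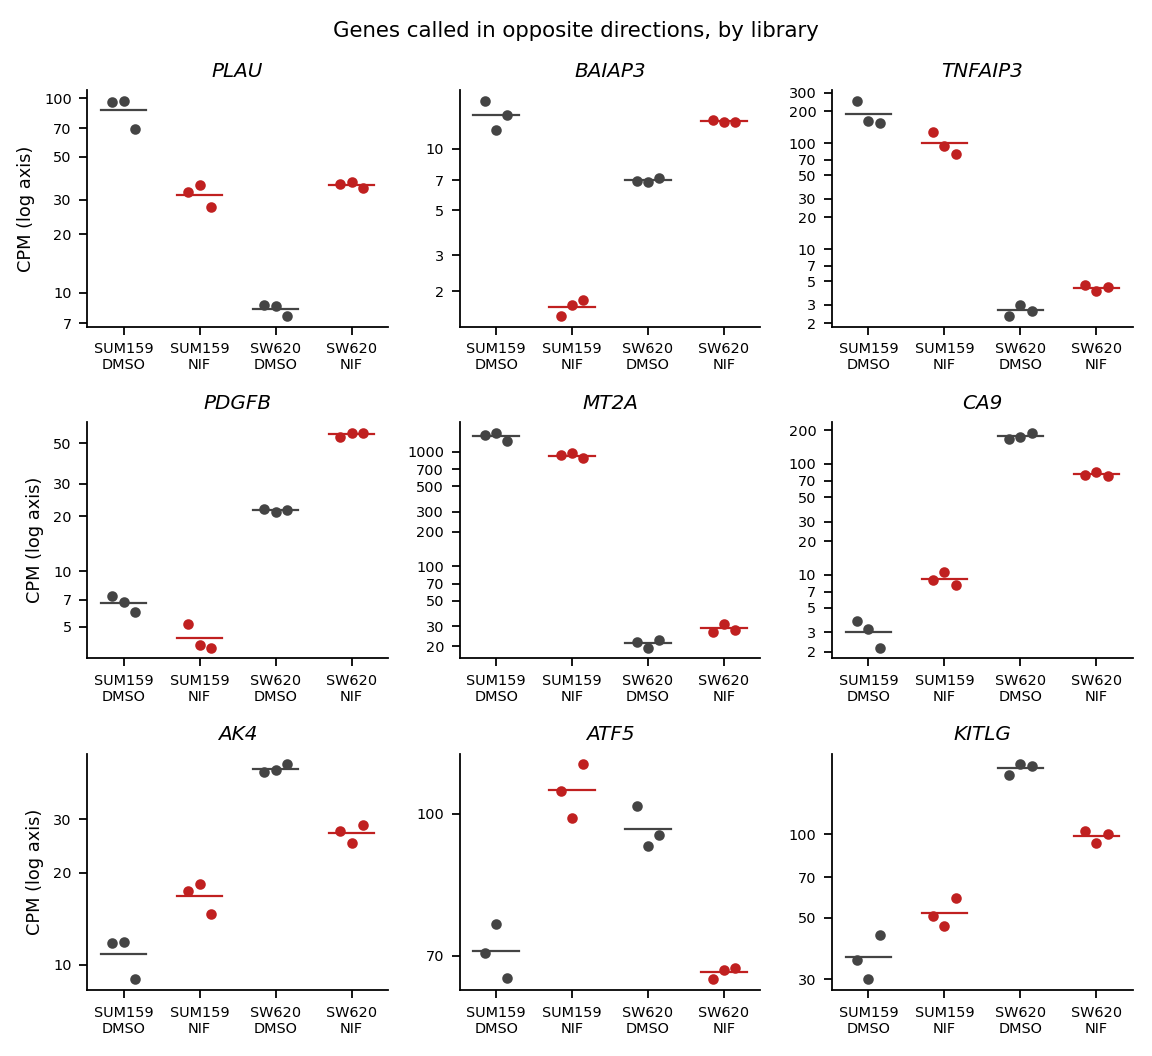
CPM on a log axis of 9 genes called in opposite directions, with 1 point per library (3 per group) and a bar at the group mean, DMSO in grey and NIF in red. In each panel the red points lie on one side of the grey in SUM159 and on the other side in SW620, as for CA9, which rose in SUM159 and fell in SW620. The rule for names asked for this separation.

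The reverse pattern, up in SUM159 and down in SW620, was led by CA9, the membrane carbonic anhydrase IX and a classic target of hypoxia-inducible factor. CA9 measured 3.78, 3.2 and 2.19 CPM under DMSO and 8.94, 10.5 and 8.11 CPM under NIF in SUM159, and 167, 173 and 191 CPM and 78.6, 84.2 and 77.5 CPM in SW620. Its log2 change was 1.6 (SE 0.14) in SUM159 and -1.14 (SE 0.092) in SW620, and the line difference -2.74 (95% interval -3.09 to -2.39, adjusted p = 1.44e-09). SW620 began far above SUM159 and stayed above it. ATF5, a leucine zipper factor of the stress response, rose in SUM159 from 70.4, 75.7 and 66.2 CPM to 106, 99.1 and 113 CPM. It fell in SW620 from 102, 92.2 and 94.9 CPM to 65.9, 67.5 and 67.8 CPM, so that the order of the lines turned round, with a line difference of -1.11 (SE 0.089, adjusted p = 4.84e-08). KITLG, the ligand of the KIT receptor, measured 35.3, 29.9 and 43.2 CPM and then 50.6, 46.7 and 59 CPM in SUM159, against 164, 179 and 176 CPM and 102, 93 and 100.3 CPM in SW620 (line difference -1.34, adjusted p = 1.41e-06). The SUM159 change of KITLG had, with that line fitted alone, an adjusted p of 0.0586. The others were AK4, a mitochondrial adenylate kinase (line difference -1.33), RGS2, which turns off G protein signals (-1.29), ARHGAP26, which turns off small GTPases (-1.13), the membrane mucin MUC13 (-1) and the long non-coding RNA DLEU1 (-0.95).

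Under DMSO the median absolute log2 difference between the lines was 1.06 for the 159 opposite genes that rose in SW620 and fell in SUM159 and 0.57 for the 57 of the reverse pattern, against 0.62 over the 12436 genes. Of the 57 that fell in SW620 and rose in SUM159, 44 (77.2%) were higher in SW620 under DMSO, and of the 159 that moved the other way 63 (39.6%) were, beside 52% of the 12436 genes. These DMSO libraries also enter the responses, so the values are a description. The median level of the 216 opposite genes was 5.35 log2 CPM in SUM159 and 5.41 in SW620, against 4.9 and 4.97 over the 12436 genes.

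Genes of inflammation fell in SUM159, and in SW620 they were called about as often as all genes tested. Of 31 tested inflammatory cytokines and NF-kB targets, 23 fell and 0 rose in SUM159, with a median log2 change of -0.68, where the median of all genes tested was 0. In SW620, 6 rose and 5 fell (median 0.1), near the 21.4% and 19.5% of all genes tested. The share of all genes that fell in SUM159 was 3.89%. The line difference was above 0 for 13 and below 0 for 1, the latter TNFAIP2, beside 14.3% and 12.2% of all genes tested. CXCL8, the chemokine interleukin-8, measured 309, 286 and 294 CPM under DMSO and 109, 150.5 and 75.6 CPM under NIF in SUM159, but 5.57, 5.84 and 6.31 CPM and 6.78, 6.8 and 6.69 CPM in SW620. The fall in SUM159 (-1.41, SE 0.14) passed the test and the SW620 value (0.2, SE 0.21) did not (adjusted p = 0.511), while the line difference did (adjusted p = 0.00013). TNFAIP3, an inhibitor of NF-kB signalling that NF-kB itself induces, fell in SUM159 from 252, 164 and 156 CPM to 128, 93.5 and 78.7 CPM. In SW620 it measured 2.35, 2.98 and 2.63 CPM and 4.64, 4.03 and 4.4 CPM, a rise that just passed the test (adjusted p = 0.0498). That rise was lost, with an adjusted p of up to 0.174, when any library was left out of SW620, replicate 2 of SUM159 NIF or replicate 2 of SUM159 DMSO, while the line difference (1.65, adjusted p = 0.000791) was not. It was 1 of 5 opposite genes of the list, with CSF1, CSF2, ICAM1 and NFKB2, which are named for that after their values were seen. Of these, CSF2 stood at a low level in every library, as given at the end. CXCL3, a neutrophil chemokine, fell in SUM159 by 1.01 on the log2 scale (SE 0.18) and measured 1.75, 2.09 and 1.96 CPM and 1.79, 2.3 and 2.1 CPM in SW620. Its line difference of 1.11 (adjusted p = 0.0317) was lost when any of 6 libraries was left out, with an adjusted p of up to 0.0942: replicate 2 of SUM159 NIF, replicate 1 of SUM159 DMSO, replicates 2 and 3 of SW620 NIF, and replicates 1 and 3 of SW620 DMSO. The list's low level in SW620 limits what could be called there: 23 of its 31 tested genes passed the filter in both lines.

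The 250 bases before a RefSeq start of TNFAIP3 and before that of CXCL3 are shown because both hold the letters GGNNTTTCC. This form of the NF-kB element was chosen after these windows had been read. The TNFAIP3 window lies inside the annotated gene (chr6:137866349-137883312), so that its start is not the first base of the gene. Of 35116 RefSeq promoter windows of that length (GRCh38.p14), 5.48% hold the letters on either strand, and of 35 windows of the list (25 of its 34 genes matched) 18, or 51.4%. Capitals mark the matches. They begin 67 and 55 bases before that start of TNFAIP3 (chr6:137867009-137867258, plus strand), on the opposite strand. Those of CXCL3 begin 78 and 53 bases before its start (chr4:74038690-74038939, minus strand). A match is a description of letters and says nothing of binding.
TNFAIP3: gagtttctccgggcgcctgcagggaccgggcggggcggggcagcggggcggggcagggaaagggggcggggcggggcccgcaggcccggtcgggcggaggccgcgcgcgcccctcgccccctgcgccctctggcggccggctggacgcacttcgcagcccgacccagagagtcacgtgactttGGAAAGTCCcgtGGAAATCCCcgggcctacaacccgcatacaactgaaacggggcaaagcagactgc
CXCL3: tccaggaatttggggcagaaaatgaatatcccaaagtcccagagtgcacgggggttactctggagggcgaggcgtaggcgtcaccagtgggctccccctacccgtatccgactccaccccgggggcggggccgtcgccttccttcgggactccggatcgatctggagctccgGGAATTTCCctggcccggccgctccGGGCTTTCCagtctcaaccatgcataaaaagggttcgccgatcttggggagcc

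Beyond inflammation, the SUM159-only falls included RUNX2, a transcription factor of bone cells, from 36.2, 31 and 24 CPM to 13.9, 13.1 and 9.27 CPM, with 13.4, 14.2 and 13.9 CPM and 13.2, 11.8 and 13.6 CPM in SW620 (line difference 1.22, adjusted p = 0.000148). TIPARP, an ADP-ribosyltransferase that the aryl hydrocarbon receptor induces, fell from 101, 96.6 and 87.2 CPM to 47.8, 45.4 and 45.4 CPM in SUM159. In SW620 it measured 91.1, 99.1 and 91.8 CPM and 103, 104 and 106 CPM, and the line difference was 1.18 (SE 0.084, adjusted p = 1.02e-08). Its SW620 value (0.14) missed the test here (adjusted p = 0.0578) but passed it with the replicate block in SUM159 only (adjusted p = 0.00924). The other receptor targets CYP1A1 and CYP1B1, enzymes that oxidise aromatic compounds, fell in both lines, with log2 changes of -3.34 and -2.4 in SUM159 and -2.56 and -2.3 in SW620, named after their values were seen. The SUM159 change of CYP1B1 rests on a very low level, which is given at the end. Of the 11 tested genes of that list, 1 rose and 3 fell in SUM159, and 2 rose and 3 fell in SW620. Line differences lay above 0 for 4 and below for 1. The SW620 counts lay near the shares of all genes tested (21.4% higher and 19.5% lower), which in SUM159 were 2.59% and 3.89%.

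The window of TIPARP is shown since it is a receptor target called in SUM159 only, and it holds the core GCGTG of the receptor's element (32.2% of all windows and 9 of 20 windows of the list hold it, 12 of 14 genes matched). The matches, in capitals and on the opposite strand, begin 208 and 142 bases before the start (chr3:156674340-156674589, plus strand), and of the gene's 3 windows 1 holds any.
TIPARP: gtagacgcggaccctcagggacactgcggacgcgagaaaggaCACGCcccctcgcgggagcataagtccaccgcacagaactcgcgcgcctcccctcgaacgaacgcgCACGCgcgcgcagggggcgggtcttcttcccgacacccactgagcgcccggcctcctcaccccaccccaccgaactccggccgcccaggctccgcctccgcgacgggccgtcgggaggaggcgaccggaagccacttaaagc

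Rises in SUM159 only were smaller. FOS, a subunit of AP-1, measured 20.2, 18.4 and 15.8 CPM under DMSO and 41.5, 26.8 and 23.9 CPM under NIF there, and 16.8, 20.1 and 20.6 CPM and 15, 17.2 and 17.5 CPM in SW620 (line difference -0.98, SE 0.22, adjusted p = 0.00263). SOX9, a transcription factor of progenitor cells, went from 13.2, 10.2 and 6.65 CPM to 18.2, 14.1 and 14.7 CPM in SUM159 and stood at 153, 151 and 151 CPM and 146, 139 and 140.5 CPM in SW620. With SUM159 fitted alone the adjusted p of FOS and SOX9 was 0.0502 and 0.138. That their SUM159 libraries did not overlap was a condition of the rule for names. NDRG1, a gene that rises in hypoxia, rose in SUM159 by 0.55 (SE 0.11), with -0.028 (SE 0.1) in SW620. The actin-binding ABLIM1 (0.64), SH3BGRL2 (0.6) and the zinc finger gene ZNF530 (0.54) completed the 6 highest, given as log2 changes in SUM159.

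The hypoxia and glycolysis genes that were called rose in SUM159 and moved both ways in SW620. Of 32 tested, 11 rose and 0 fell in SUM159 (median log2 change 0.18), while 9 rose and 10 fell in SW620 (median -0.07), and the line difference was above 0 for 7 and below 0 for 14. Over all genes tested, 2.59% rose in SUM159, 21.4% rose and 19.5% fell in SW620, and the line difference was above 0 for 14.3% and below 0 for 12.2%, so that the SW620 counts lay nearer to the background than the SUM159 rises. VEGFA, the vascular growth factor, measured 128, 137 and 98.5 CPM and 122, 117 and 102 CPM in SUM159 but rose from 102, 108 and 115 CPM to 306, 304 and 307 CPM in SW620. SLC2A1, the main glucose transporter, rose in SW620 by 0.78 on the log2 scale and ALDOC, a glycolytic aldolase, fell by 0.88. The core ACGTG of the hypoxia element is in 18.5% of all windows and in 20 of the 47 windows of the list (28 of 32 genes matched). The window of CA9, which with GPI was called in opposite directions, holds 1 match on the opposite strand that begins 18 bases before the start (chr9:35673678-35673927, plus strand), in capitals.
CA9: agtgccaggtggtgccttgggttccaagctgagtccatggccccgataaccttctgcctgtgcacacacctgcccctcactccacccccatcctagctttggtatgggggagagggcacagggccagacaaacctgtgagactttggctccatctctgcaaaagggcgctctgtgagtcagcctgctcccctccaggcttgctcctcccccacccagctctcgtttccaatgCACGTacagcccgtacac

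NRF2 targets rose in both lines, and nearly all rose further in SW620. Of 25 tested, 17 rose and 1 fell in SUM159 (median log2 change 0.32) and 25 rose in SW620 (median 1.38). Line differences lay above 0 for 23 and below for 0. Among all genes tested, 2.59% rose in SUM159, 21.4% rose in SW620 and 14.3% had a line difference above 0. The gene that fell in SUM159 was the transporter ABCC3 (log2 -0.29), singled out after its value was seen. AKR1C1, a ketosteroid reductase, measured 7.28, 5.63 and 6.07 CPM under DMSO and 13.3, 11.2 and 13.5 CPM under NIF in SUM159. In SW620 it went from 50.3, 55.9 and 58.4 CPM to 699.5, 703 and 705 CPM, and the line difference was 2.68 (SE 0.12, adjusted p = 3.51e-11). NMRAL2P, a pseudogene whose reads a related gene could share, changed by 1.07 in SUM159 and 4.26 in SW620. ABCC2, an export pump of conjugates, rose in SW620 by 2.37, with -0.24 in SUM159 (adjusted p = 0.229).

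HMOX1, heme oxygenase-1, was the NRF2 target closest to an equal response. It measured 336, 413 and 245 CPM under DMSO and 951, 955 and 749.7 CPM under NIF in SUM159, and 23.3, 25.7 and 28.2 CPM and 92.6, 90.9 and 93 CPM in SW620. The log2 changes were 1.42 (SE 0.13) and 1.84 (SE 0.14), and their difference, 0.42, had a 95% interval of 0.024 to 0.82 and an adjusted p of 0.114. With the replicate block in SUM159 only that difference was called (adjusted p = 0.000293), as were those of SEL1L3, INSIG1 and SLC7A2, so these 4 alike genes are alike only without the block. TXNRD1, the cytosolic thioredoxin reductase, moved unequally (log2 0.52 in SUM159 and 1.7 in SW620) and is chosen here for its sequence, after its values were seen. Its window holds the letters TGACNNNGC of the NRF2 element, in capitals, from 99 bases before the start (chr12:104215529-104215778, plus strand). They occur in 10.9% of all windows and in 5 of 20 windows of the list (18 of 25 genes matched).
TXNRD1: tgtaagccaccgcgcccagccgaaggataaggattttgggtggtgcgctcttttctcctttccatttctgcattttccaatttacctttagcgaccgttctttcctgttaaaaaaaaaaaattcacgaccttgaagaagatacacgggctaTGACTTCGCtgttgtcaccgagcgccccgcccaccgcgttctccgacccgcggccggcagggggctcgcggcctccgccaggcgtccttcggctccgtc

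Targets of ATF4 rose mainly in SW620. Of 35 tested, 9 rose and 1 fell in SUM159 (median log2 change 0.22), and 29 rose and 1 fell in SW620 (median 1.47). Line differences lay above 0 for 30 and below for 1, ATF5. The shares of all genes tested were 2.59% higher and 3.89% lower in SUM159 and 21.4% and 19.5% in SW620. For the line difference they were 14.3% and 12.2%. CHAC1, an enzyme that breaks down glutathione, measured 13.1, 10.7 and 6.88 CPM and then 18.7, 16.4 and 19 CPM in SUM159. In SW620 it rose from 4.89, 5.84 and 6.64 CPM to 54.3, 60.1 and 58.5 CPM, with a line difference of 2.49 (SE 0.22, adjusted p = 1.57e-07). SLC6A9, a glycine transporter, rose in SW620 from 2.48, 2.89 and 2.93 CPM to 26.3, 26.7 and 27.5 CPM, and its SUM159 log2 change of 0.36 missed the test (adjusted p = 0.0688) but passed it with the replicate block in SUM159 only (adjusted p = 0.0019). Among 20 tested aminoacyl-tRNA synthetases, which charge tRNAs, 3 rose in SUM159 and 13 rose and 5 fell in SW620, among the former AARS1 (log2 1.34). Of 25 tested genes of the unfolded protein response of the endoplasmic reticulum, 0 were called in SUM159, and in SW620 11 rose, among them XBP1 (0.97) and ERN1 (1.31), and 5 fell, among them the chaperone CALR (-0.63). The ATF4 letters TGATGNAA are in 3.14% of all windows and in 6 of 46 windows of the ATF4 list (29 of 35 genes matched). That of CHAC1 (chr15:40953221-40953470, plus strand) holds 1 match on the opposite strand from 209 bases before the start, in capitals.
CHAC1: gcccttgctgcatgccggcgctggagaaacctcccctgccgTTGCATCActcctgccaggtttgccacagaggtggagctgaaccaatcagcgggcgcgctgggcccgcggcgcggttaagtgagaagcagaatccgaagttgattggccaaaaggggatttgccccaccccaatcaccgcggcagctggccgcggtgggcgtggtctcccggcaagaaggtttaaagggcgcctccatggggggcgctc

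The rule for named SW620-only genes asked for expression in each line over both treatments, so that the genes given here are ones SUM159 also expressed. AHNAK2, a giant scaffold protein, measured 19, 19.3 and 22.4 CPM under DMSO and 302, 284 and 292 CPM under NIF in SW620, and 184, 169 and 205 CPM and 189, 159 and 206 CPM in SUM159. IL6R, the receptor of interleukin-6, rose in SW620 from 2.27, 2.11 and 2.32 CPM to 30.2, 29 and 31.1 CPM, while SUM159 held 35.6, 31.2 and 32.5 CPM and 34.3, 35.5 and 37 CPM. The line differences were 3.86 (SE 0.13, adjusted p = 4.48e-13) and 3.64 (SE 0.11, adjusted p = 2.49e-13). In each, the treated SW620 libraries stood near or above the SUM159 level from a start far below it. The same held for NLRC5, an activator of MHC class I genes, in part (0.994, 1.03 and 1.36 CPM to 12.9, 13.9 and 13.9 CPM, against 30.7, 26.3 and 31.3 CPM in SUM159 under DMSO), and for CTSL, a lysosomal protease (11.7, 11 and 10.9 CPM to 79.4, 82.1 and 80.9 CPM, against 72.2, 85.4 and 71.4 CPM). GPSM1, a modulator of G protein signals, rose by 3.4 on the log2 scale in SW620. The lowest SW620-only changes by that rule included those of APOBEC3C, a cytidine deaminase (-2.3), TLR4, the receptor of lipopolysaccharide (-2.04), the transcription factor IKZF2 (-1.8), the urea transporter SLC14A1 (-1.71) and the ubiquitin ligase TRIM2 (-1.69), as log2 changes in SW620. With the replicate block in SUM159 only, CTSL, GPSM1, SLC6A9 and TLR4 were called in SUM159 too.

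Most AP-1 and immediate early genes rose in SW620. The shares of all genes tested, to set beside the counts here, were 21.4% higher and 19.5% lower in SW620. In SUM159 they were 2.59% and 3.89%, and for the line difference 14.3% above 0 and 12.2% below. Of 30 tested AP-1 and immediate early genes, 21 rose and 0 fell in SW620 (median log2 change 0.64), beside 4 and 2 in SUM159 (median 0.02), and 19 line differences lay above 0 and 1 below, that of FOS. DUSP5, a phosphatase that turns off ERK and is induced by it, rose in SW620 from 11, 13.2 and 13.8 CPM to 111, 116 and 107 CPM and in SUM159 from 44, 46.3 and 33.3 CPM to 61.6, 66.8 and 71 CPM (line difference 2.44, adjusted p = 9.15e-10). KLF4, a zinc finger factor, rose in SW620 by 1.59, with 0.031 in SUM159 (adjusted p = 0.942). Of 36 tested genes of STAT3 and IL-6 signalling, 18 rose and 4 fell in SW620 (median 0.18), and 2 rose and 5 fell in SUM159 (median -0.08). SOCS3, a feedback inhibitor that STAT3 induces, rose in SW620 from 1.47, 1.33 and 1.36 CPM to 7.1, 7.13 and 6.77 CPM. In SUM159 it measured 24.2, 20.9 and 21.1 CPM and 27.1, 25 and 25.2 CPM, a log2 value of 0.22 that missed the test (adjusted p = 0.106) but passed it with the replicate block in SUM159 only (adjusted p = 0.0169). STAT3 itself was called in neither line (log2 -0.15 and -0.12, line difference 0.031, 95% interval -0.13 to 0.19), although with that block it was called in both (adjusted p = 0.0147 and 0.0235). CCND1, cyclin D1, rose in SW620 by 0.66 (SE 0.058), with 0.14 in SUM159 (adjusted p = 0.159, and 0.012 with the block). Of 40 tested interferon response genes, 19 rose and 3 fell in SW620, among the former IRF7 (0.92) and ISG15 (0.5), and 0 rose and 1 fell in SUM159.

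Genes of cell division fell mainly in SW620. Among all genes tested, 19.5% fell and 21.4% rose in SW620, 3.89% fell and 2.59% rose in SUM159, and 12.2% had a line difference below 0. Of 50 tested genes of mitosis, 14 fell in SUM159 (median log2 change -0.17) and 47 in SW620 (median -0.58), 0 rose in either, and 37 line differences lay below 0. KIF20A, a mitotic kinesin, fell from 148, 157 and 158 CPM to 117, 136 and 123 CPM in SUM159 and from 102, 102 and 95.6 CPM to 44.5, 47.1 and 48.1 CPM in SW620. BIRC5, survivin, fell by 0.86 on the log2 scale in SW620, with -0.11 in SUM159 (adjusted p = 0.322). DNA replication genes moved in SW620 alone in the main: of 50 tested, 34 fell and 2 rose there, while 2 rose and 0 fell in SUM159. ORC1, a subunit of the origin recognition complex, was opposite, with 46.4, 44.1 and 46 CPM and 51.7, 53.4 and 56.2 CPM in SUM159 and 64.4, 60.9 and 59.7 CPM and 47.3, 47.8 and 49.2 CPM in SW620. Of 38 tested genes of the Fanconi anemia pathway and homologous recombination, which repair crosslinks and breaks, 13 fell and 4 rose in SW620 and 2 rose in SUM159. EXO1, an exonuclease, was opposite (0.33 and -0.26). FANCI, of the FANCI-FANCD2 clamp, fell in SW620 by 0.36 (SE 0.05), with 0.01 in SUM159 (SE 0.051), and the line difference was -0.37 (adjusted p = 0.000728). FANCD2 had log2 values of -0.19 in SW620 and 0.064 in SUM159, and its line difference (-0.25, adjusted p = 0.0264) was lost, with an adjusted p of up to 0.0789, when replicate 2 of SUM159 NIF, replicate 2 of SW620 NIF, or replicate 1 or 2 of SW620 DMSO was left out. Of 26 tested p53 targets, 10 rose and 4 fell in SW620 and 1 rose and 1 fell in SUM159. CDKN1A, the cell cycle inhibitor p21, rose in SW620 from 27.4, 28 and 32.9 CPM to 129.5, 137 and 128 CPM and in SUM159 by 0.3 (adjusted p = 0.0401, and 0.153 with SUM159 fitted alone).

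Most cholesterol genes fell in SW620, and fewer in SUM159. Of 26 tested, 9 fell in SUM159 (median log2 change -0.17) and 22 in SW620 (median -0.79), with 0 rising. Among all genes tested, 3.89% fell in SUM159 and 19.5% in SW620. INSIG1, which holds back cholesterol synthesis and is induced when sterols are low, fell from 28.6, 30.6 and 26.9 CPM to 17.3, 15.7 and 14.4 CPM in SUM159 and from 110.2, 119 and 123 CPM to 57.1, 52.5 and 54.6 CPM in SW620. IDI1, an isomerase of the pathway, fell by 0.21 and 1.04 on the log2 scale, ACAT2 by 1.19 and MVK by 0.98 in SW620.

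The remaining lists are given by their counts, to be read against the 21.4% of all genes tested that rose and the 19.5% that fell in SW620, and the 2.59% and 3.89% in SUM159. Of 6 tested metallothionein and zinc export genes, MT2A and MT1X were opposite: MT2A measured 1399, 1467 and 1248 CPM and 928, 964 and 874 CPM in SUM159 and 21.8, 19.4 and 22.7 CPM and 26.6, 31.6 and 27.8 CPM in SW620. Metallothioneins are near-identical copies, and how shared reads were counted is not given in the sources used here. Of 22 heat shock chaperones, 12 fell and 3 rose in SW620, HSPB1 falling by 1.04, and 1 rose in SUM159. Of 74 cytosolic ribosomal proteins, 15 were higher in SW620, near the share of all genes, and 1 was lower. Of 38 mitochondrial complex I subunits, 2 were higher there and 7 lower, the falls near that share. Of 32 histones, 5 were higher and 4 lower, below the shares of all genes. In SUM159, 0 genes of these 3 lists were called. In the BCL2 family, 5 of 15 rose and 2 fell in SW620, and 1 rose and 1 fell in SUM159. BMF, which promotes cell death, fell in both lines, by 1.41 in SUM159 and 0.51 in SW620 on the log2 scale. Its SW620 call was lost, with an adjusted p of up to 0.0679, when replicate 3 of SW620 NIF or of SW620 DMSO was left out. Of 22 Wnt and intestinal stem cell genes, 6 rose and 6 fell in SW620 and 1 each way in SUM159. Of 36 genes of epithelial-mesenchymal transition and matrix, 10 rose and 5 fell in SW620, among the former CCN2 (1.5), and 4 moved each way in SUM159. Of 20 colon epithelial markers, 6 rose and 10 fell in SW620 and 1 rose in SUM159. Of 20 mesenchymal markers, 5 moved each way in SW620, near the shares of all genes, and 3 fell in SUM159. The part of the marker lists in the results was not tested.

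Of the 226 genes that responded alike, those the rule names included HMOX1 and the following. CD24, a surface glycoprotein used to sort breast cancer cells, fell from 17, 13.9 and 19.4 CPM to 7.43, 7.08 and 9.04 CPM in SUM159 and from 374, 382 and 398 CPM to 186, 190.0 and 189 CPM in SW620, a line difference of 0.072 (95% interval -0.2 to 0.35). BIRC3, an inhibitor of apoptosis induced by NF-kB, fell from 234, 181 and 221 CPM to 108, 106 and 105 CPM and from 9.94, 11.5 and 11.2 CPM to 6.06, 5.89 and 7.46 CPM. SLC7A2, an arginine transporter, NFE2L3, a relative of NRF2, and the protease PRSS12 fell in both lines too, by 0.95, 0.66 and 0.66 in SUM159 and 1.25, 0.87 and 0.72 in SW620. Among the rises, RND1, a small GTPase, changed by 0.7 and 1.03, TNFSF9, a ligand of the tumour necrosis factor family, by 0.73 and 1.01, and the motor protein MYO5B by 0.59 and 0.64. Of these, the SUM159 changes of RND1, TNFSF9 and NFE2L3 did not pass the test with SUM159 fitted alone.

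The ALDHbr cells of the same lines, which took no part in choosing the genes, showed line differences mostly of the same sign. In a fit of all 24 libraries, 4103 of the 4211 genes with a called difference in ALDHneg cells (97.4%) had a difference of the same sign in ALDHbr cells, beside 72.2% of the 8391 genes measured in both lines without a call. It was called with that sign for 2769 (65.8%), where 3762 of the 16271 genes in that fit had a called line difference in ALDHbr cells. Of the 216 opposite genes, 211 (97.7%) had the same pair of signs in ALDHbr cells. That share was 63.7% of the 12436 genes, 97.8% of the alike and 99.4% of the unequal genes, so it was not particular to the opposite class. In ALDHbr cells, 72 of the 216 opposite genes were called in both lines with those signs. PLAU had log2 values of -1.37 and 2.18 in ALDHbr cells of SUM159 and SW620, and CA9 of 1.82 and -1.16. Other named opposite genes followed less well. In ALDHbr cells of SUM159, AK4 (log2 0.23), ARHGAP26 (0.11), MUC13 (0.12), DLEU1 (0.18) and TPPP (-1.17) were among those not called. TNFAIP3 (0.18) and MT2A (-0.041) were not called in ALDHbr cells of SW620, and MT1X fell in the ALDHbr cells of both lines (-0.49 and -0.76). The populations came from the same experiments by the study's methods, so that a shared culture is a link between them. The difference between populations itself was called for 1 of 16271 genes (0.00615%), BAIAP3, and 622 had an unadjusted p below 0.05. The latter number is smaller than that threshold would pass on average if no gene differed. In ALDHbr cells BAIAP3 had log2 values of -0.74 in SUM159 and 0.69 in SW620, and its line difference was 2.67 larger in ALDHneg cells (SE 0.412, adjusted p = 0.0198). DESeq2 called 4 genes there and the fit with the replicate block in both lines 3, each with BAIAP3 and MT1X among them.

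**Figure D3:**
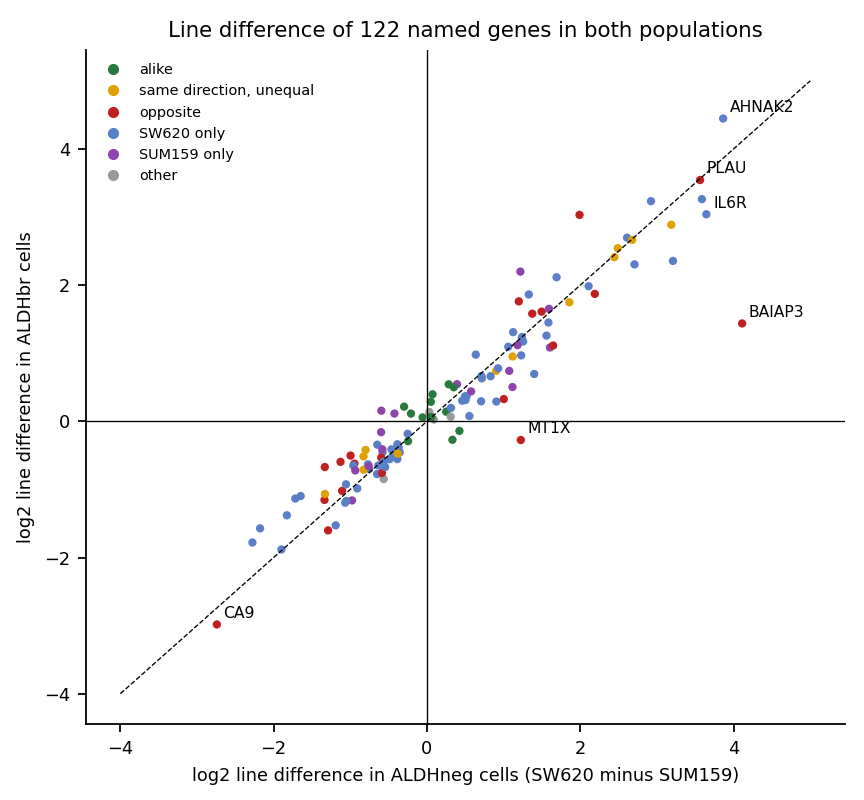
Line difference on the log2 scale (SW620 minus SUM159) in ALDHneg cells (horizontal axis, 12-library fit) and ALDHbr cells (vertical axis, 24-library fit) of the 122 named genes, coloured by response class, with the line of equality dashed. Most points lie near the dashed line, and BAIAP3 lies far to its right (4.11 and 1.44).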

How the data were processed

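RNA of sorted ALDHneg cells was sequenced in 12 of 24 libraries. The table the authors deposited holds raw counts of 28307 genes, each row giving a symbol and an Entrez number. Per the labels, the submitters' processing notes name FastQC, STAR and GRCh38, and the counting tool and its handling of shared reads are not given in the sources used here. Of these genes, 5358 had no count in the 12 libraries. Columns were matched to samples by name.

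The tests were run with edgeR 4.0.16 under R 4.3.3: filterByExpr by group (15859 genes), TMM, 1 mean per group, quasi-likelihood F tests and Benjamini-Hochberg adjustment over all genes tested, at 0.05, with no minimum fold. SE is the log2 value divided by the square root of F. CPM was computed on library sizes times TMM factors, and its log2 with a prior count of 2. Class counts cover genes passing the filter in each line alone. Named were the genes the study measures (STAT3, CCND1, ALDH1A1, FANCI and FANCD2 among them) and, among genes at a mean log2 CPM of at least 1 in each line without overlap of libraries where called, the 8 strongest opposite genes in each orientation, 6 each way of each single-line class and of the alike class, 4 each way of the unequal class, and of each gene list the 2 highest and 2 lowest called line differences. The members, lists and rules were chosen with earlier results of these data known, and the lists were written from general knowledge. Some genes that these rules name are not reported here. Scripts were tested on simulated counts.

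The 3 libraries of a group came from independent experiments by the study's methods, and a total of 31212580 to 43127948 counts gave a median 95% half-width of 0.236 for a line difference. No library repeated another, as replicates differed by a chi-square of 1.95 to 24.5 for each gene. Deviations of same-numbered NIF and DMSO libraries correlated at 0.405, 0.328 and 0.389 in SUM159 and -0.0305, -0.0437 and -0.0476 in SW620, so the numbers paired the SUM159 libraries only. Promoter windows are RefSeq's (GRCh38.p14). Alternatives were DESeq2 1.42.0, limma 3.58.1 (voom), other scalings and filters, all 24 libraries, each line alone, the block, a minimum log2 of 1 and leaving out each library. ALDHbr libraries entered the 24-library fit alone.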

Additional observations from a re-analysis of the deposited data

Results flagged for a closer look

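The response to NIF differed between the lines by the test of the difference itself for 4211 genes, and 216 genes were called in opposite directions. Among the named opposite genes, the log2 line difference was above 0 for BAIAP3 (4.11), PLAU (3.56), TPPP (2.19), PDGFB (1.99), TNFAIP3 (1.65), PCED1B (1.37) and GALNT5 (1.2). It was below 0 for CA9 (-2.74), KITLG (-1.34), AK4 (-1.33), RGS2 (-1.29), ARHGAP26 (-1.13), ATF5 (-1.11), MUC13 (-1) and DLEU1 (-0.95). The line difference of BAIAP3 was 2.67 larger in ALDHneg than in ALDHbr cells, by the test of that difference. Groups of 3 libraries are too small to look for single outlying samples.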

How the results depend on the processing

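Of 2562 refits of the line difference of 122 named genes, 44 lost the call, 19 gained it and 0 reversed the sign of a called difference. The other 2499 were counted as unchanged, where a change of sign was not looked for in genes without a call. Median line differences of the 25 lists moved by less than the median SE of their genes' line differences in 520 of 525 refits. SUM159 calls numbered 601 with voom, 2253 with the replicate block in both lines, 2785 with it in SUM159 only, 292 with SUM159 fitted alone and 104 at a minimum log2 of 1, where SW620 kept 971 and the line difference 802. Leaving out 1 library gave 655 to 1583 SUM159 calls.

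For the alike, unequal, opposite and SUM159-only classes in turn, voom gave 123, 105, 142 and 96 genes, the block in both lines 419, 397, 483 and 349, the block in SUM159 only 529, 507, 633 and 420, and a minimum log2 of 1 left 9, 5, 10 and 16, with 438 of SW620 only. Leaving out 1 library gave 119 to 324, 98 to 231, 148 to 371 and 122 to 311. The ALDHneg against ALDHbr line difference was called for 3 genes with the block in both lines and 4 with DESeq2. The replicate block in SUM159 only ended no call of a named gene.

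Calls lost on leaving out 1 library were found for 16 named genes in SUM159, 5 in SW620 and 7 in the line difference. In SUM159 these were CDKN1A, DLEU1, IDI1, MUC13, ORC1, PCED1B, RGS2, RIPOR2, RND1, SARS1, SH3BGRL2, SOX9, TGFBR3, TNFSF9, ZNF530 and ZNF699. In SW620 they were BMF, FANCD2, KRT18, NDUFAB1 and TNFAIP3. Depth limits the genes near 0 in 1 line, where a missed call does not show that a gene did not respond.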

Other observations

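Some of the steepest responses fell outside the rule for names, being near 0 in 1 group, and are given as values chosen after they were seen. ZNF469, a zinc finger gene, measured 108.8, 105.9 and 107.6 CPM under DMSO and 158.4, 149.4 and 163.6 CPM under NIF in SUM159, and went from 0.131, 0.0834 and 0.0906 CPM to 9.06, 7.95 and 8.9 CPM in SW620. SOCS2, a feedback inhibitor of cytokine receptors, fell in SUM159 from 13.5, 13 and 12.4 CPM to 9.04, 9.16 and 8.84 CPM and rose in SW620 from 0.549, 0.806 and 0.423 CPM to 2.77, 2.63 and 3.03 CPM, with a line difference of 2.75 (SE 0.22, adjusted p = 3.22e-08). CSF2, a growth factor of granulocytes and macrophages, stood below 2 CPM in every library, with a log2 change of -1.7 in SUM159 and 1.27 in SW620. FLRT1, a membrane protein, had 0 counts in the 3 SW620 DMSO libraries and 1.13, 1.37 and 1.26 CPM under NIF, and ADH1C, an alcohol dehydrogenase, had 0.575, 0.556 and 0.875 CPM under DMSO and 0 counts under NIF there. In SUM159 neither was called.

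CYP1A1 fell from 19.1, 12.6 and 11.9 CPM to 2.06, 1.01 and 1.07 CPM in SUM159 and from 3.5, 4.67 and 4.5 CPM to 0.692, 0.822 and 0.628 CPM in SW620. CYP1B1 fell from 58.8, 65 and 66.3 CPM to 14.4, 12.3 and 11.9 CPM in SW620, and in SUM159 it was below 1 CPM throughout. BNIP3, a mitophagy receptor induced in hypoxia, measured 68.7, 74.5 and 80 CPM and then 104.1, 127.7 and 92.3 CPM in SUM159, and in SW620 it was below 0.03 CPM in every library, so that no line difference could be read for it.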
